A study of Homo sapiens with 15 samples.

Results

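The DNA replication genes are 49 protein-coding genes whose products load, activate and run the machinery that copies chromosomes, and they were chosen by gene symbol from that known function. All 49 were found among the 21519 genes of the count table, and 47 passed the filter on low counts that left 12197 genes to be tested. The same symbols own 2706 of the 721551 splicing events that were deposited. Polyadenylated RNA was sequenced from HEK-293, a cell line derived from human embryonic kidney. Cells were transfected for 24 h with a GEMIN5 expression plasmid (Input GEMIN5, n = 3, and Polysome GEMIN5, n = 4) or left untreated (Input control, n = 4, and Polysome control, n = 4). Input is the cytoplasmic lysate, and Polysome is fractions 8 to 12 of the 12 taken from a sucrose gradient, where mRNAs that carry several ribosomes sediment. GEMIN5 is an RNA-binding protein of the complex that assembles spliceosomal ribonucleoproteins, and the study compares splicing in the lysate with that in translated RNA when its level is raised. The control cells were not transfected, so the plasmid's effect and that of transfection cannot be told apart, and in such bulk libraries fewer expressing cells and less RNA per cell cannot be told apart either. The labels call the samples of a group independent without saying what made them so, and p-values rest on the spread among these libraries alone.

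DNA replication starts when the origin recognition complex (ORC), CDC6 and CDT1 load the MCM2-7 ring onto DNA, a step called licensing that geminin (GMNN) restrains. The kinase CDC7 with its partner DBF4 then helps CDC45 and the GINS complex to join MCM2-7 as the active helicase, and the polymerases alpha, delta and epsilon copy the strands behind it, held in place by the clamp PCNA. Many of these genes are known targets of the E2F transcription factors, which switch them on before S phase.

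Libraries held between 11191417 and 18407933 counts. GEMIN5 itself was 6.68 log2 units higher in Input GEMIN5 than in Input control libraries (SE 0.21) and 7.31 higher in Polysome GEMIN5 than in Polysome control libraries (SE 0.22). Of 7 HEK-293 markers, 6 or 7 had counts in every library. Ribosomal protein genes took 58.5% ± 2.62 of the counts in Input GEMIN5 and 34.9% ± 0.527 in Input control libraries (SD, n = 3 and 4). The scaling of the libraries (TMM) corrects for such a shift, and without it the median gene in Input lies at -1.29 (GEMIN5 against control in Input), 0.54 and 1.78 (Polysome against Input, in control cells and then GEMIN5 cells) and 0.00 (GEMIN5 against control in Polysome). Every log2 change given here is therefore relative to the typical gene. The 10 liver markers summed to 27 to 45 counts in Input GEMIN5, 11 to 1395 in Input control, 8 to 24 in Polysome GEMIN5 and 1186 to 1657 in Polysome control libraries, and among the Input control libraries only replicates 3 and 4 exceeded 19, so counts of called genes and values set per library are also given without them. Albumin (ALB), fibrinogen (FGA, FGB) and SERPINA1 were at 0 in the Input GEMIN5 libraries and in Input control replicates 1 and 2. The liver marker APOA1 was not, with 41, 44 and 27 counts in Input GEMIN5 and 17, 11, 41 and 32 in Input control libraries. It made up most of the liver counts in Input GEMIN5 libraries. The 8 blood markers summed to 93 to 116 counts in Input GEMIN5, 70 to 111 in Input control, 83 to 110 in Polysome GEMIN5 and 176 to 261 in Polysome control libraries, and the 5 fibroblast markers never exceeded 89. Leaving out Input control replicates 3 and 4 can even out the liver markers in the Input comparison only. All Polysome control libraries held them, so comparisons with those libraries are not evened out by it. The part of these markers in the results was not tested.

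E2F sites can be read in the promoters of these genes, which is why a few are shown here. Of the 49 genes, 43 had at least 1 promoter in the RefSeq table (GRCh38.p14, 300 bases from 250 before to 50 after the start). The E2F motif TTTNGCGC, searched on both strands with overlaps counted, lay in the promoters of 15 of the 43 genes, which is 27.8% of their 54 promoters, beside 1.79% of all 35116 promoters of the same length. The stricter form TTTGGCGC lay in 7 of the 43, beside 0.652% of all promoters. A match describes the letters only. The lines below give the 160 bases before the start of MCM6 (chr2:135876444-135876603, minus strand), MCM7 (chr7:100101398-100101557, minus strand), POLE (chr12:132687343-132687502, minus strand) and POLE2 (chr14:49688215-49688374, minus strand), a helicase pair and a polymerase pair that recur in the results, with the motif on either strand in capitals.
MCM6: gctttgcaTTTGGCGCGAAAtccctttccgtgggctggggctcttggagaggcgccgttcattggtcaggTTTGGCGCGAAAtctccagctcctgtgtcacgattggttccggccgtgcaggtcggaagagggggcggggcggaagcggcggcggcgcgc
MCM7: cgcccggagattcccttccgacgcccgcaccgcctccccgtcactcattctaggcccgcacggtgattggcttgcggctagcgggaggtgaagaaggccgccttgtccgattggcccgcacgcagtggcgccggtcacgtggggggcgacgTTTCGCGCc
POLE: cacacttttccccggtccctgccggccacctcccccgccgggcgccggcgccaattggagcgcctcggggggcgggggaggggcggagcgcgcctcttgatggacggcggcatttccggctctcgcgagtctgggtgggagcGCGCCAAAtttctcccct
POLE2: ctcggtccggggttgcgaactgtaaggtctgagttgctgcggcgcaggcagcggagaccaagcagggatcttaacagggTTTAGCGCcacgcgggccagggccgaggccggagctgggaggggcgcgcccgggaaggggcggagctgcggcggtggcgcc
MCM6 carries the palindromic form in both of its places, where each strand matches. POLE and MCM7, which has 3 promoters in the table, carry 1 site each close to this start, and POLE2 carries 1 inside these bases and another that crosses the start and is not marked.

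Per length, the levels of these genes spanned a wide range. In Input control libraries the sliding clamp PCNA was highest, at 404.7 ± 17.2 CPM (counts relative to the library total, with TMM factors) per kb of transcript, followed by POLD2, the small subunit of polymerase delta, at 210.8 ± 8.54, thymidylate synthase TYMS at 179.6 ± 5.65 and the helicase subunit MCM7 at 152.1 ± 7.52 (SD, n = 4 each). The ranges of these 4 genes over the Input control libraries did not overlap. At the other end, among the genes tested, were the checkpoint mediator CLSPN at 1.08 ± 0.239, the fork protein WDHD1 at 1.55 ± 0.0744, and the catalytic subunit POLE at 1.73 ± 0.0871. Values per kb take even coverage for granted, and reads across introns leaned to the 3′ end in Input control libraries too. The transcript used has 7840 bases for POLE and 1344 for PCNA. By CPM alone POLE, at 13.6 in Input control libraries, stood above GINS1 at 7.90. PCNA and POLD2 were also the top 2 of the 49 in Polysome control libraries, at 284.8 ± 26.2 and 172.0 ± 32.8 CPM per kb. POLA2 and FEN1 could not be tested. POLA2, the B subunit of polymerase alpha, had 0 counts in all 15 libraries, and FEN1, the flap nuclease that trims Okazaki fragments, had 14 counts in all. An unnamed gene on the same strand (ENSG00000285816) covers 43662 of POLA2's 43670 bases, and FADS2 covers 4259 of FEN1's 4328. The splicing table nevertheless holds reads across their introns. POLA2 averaged 333.9 spliced reads in Input GEMIN5 and 913.6 in Input control libraries over 17 introns, and FEN1 averaged 7.67 and 88.9 over its single intron. Each gene's count in the table is therefore no measure of its RNA.

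In the cytoplasmic lysate, GEMIN5 cells had less RNA of many replication genes relative to the typical gene. Of the 47 tested, 18 fell and 6 rose, while 23 did not pass the test (edgeR quasi-likelihood test, Benjamini-Hochberg adjusted p under 0.05). Among all genes tested 24.3% fell and 27.1% rose, 51.5% in either direction, and the replication genes' shares were 38.3% and 12.8%. Their median log2 change was -0.40, beside -0.01 over all genes. It was -0.62 without Input GEMIN5 replicate 2, and -1.69 with library size only, where the median of all genes lies at -1.29. The Input GEMIN5 and Input control libraries did not overlap in 35 of the 47 genes, the 24 called ones among them, and in 58.9% of all genes. With libraries scaled by size only, all 6 genes that rose except RPA3 took negative values. Then 43 of the 47 genes were called lower, beside 9270 of all 12197 genes. Without Input control replicates 3 and 4, 16 genes fell and 4 rose.

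**Figure D1:**
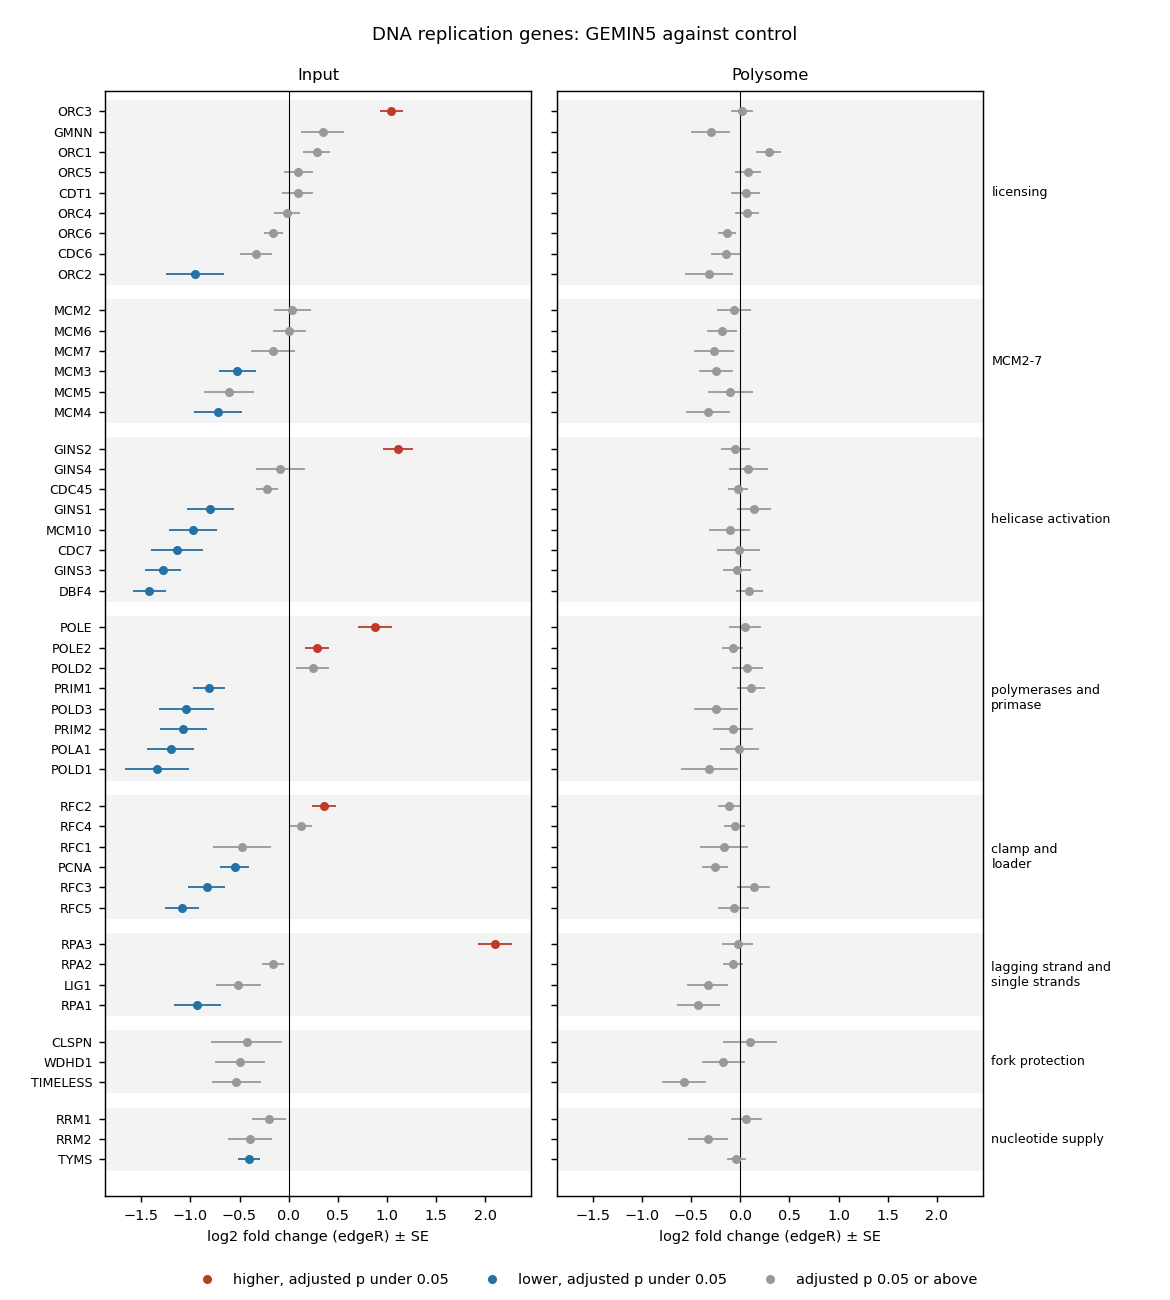
Log2 fold change of the 47 tested replication genes in GEMIN5 against control cells, in Input (left) and Polysome (right), grouped by role. Points are edgeR estimates with their SE, red and blue mark genes called higher and lower, and grey marks genes that were not called. In Input 6 genes are higher and 18 lower, and in Polysome none is called. The red points in Input other than RPA3 turn negative when libraries are scaled by size only.

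RPA3 rose most. It encodes the small subunit of replication protein A, which coats single-stranded DNA (ENSG00000106399, chr7:7636518-7718607, minus strand, GRCh38). It had 923, 1045 and 985 CPM in Input GEMIN5 libraries, against 255, 230, 228 and 207 in Input control libraries. All GEMIN5 libraries lay far above all control libraries, a log2 change of 2.10 (SE 0.17, edgeR adjusted p = 2.35e-08). On the opposite strand UMAD1 overlaps 94.9% of the span of RPA3, and whether strand was used in counting is not given. UMAD1 had 2502 counts over all libraries and RPA3 69662, and the reads spliced across RPA3's 7 introns changed by 2.15 log2 units, about as much as its count. The large subunit RPA1, which holds the main DNA-binding surface, went the other way, at 51.4 ± 6.10 CPM in Input GEMIN5 and 97.9 ± 3.33 in Input control libraries (log2 change -0.93, SE 0.24, edgeR adjusted p = 0.00332). The middle subunit RPA2 was not called (log2 change -0.16, SE 0.11). LIG1, the ligase that joins Okazaki fragments, was not called at -0.51 (SE 0.23).

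Among the helicase activators the GINS complex split. GINS2 (ENSG00000131153, chr16:85676198-85690073, minus strand), 1 of its 4 subunits, had 514, 659 and 625 CPM in Input GEMIN5 libraries, against 265, 303, 283 and 255 in Input control libraries. Every GEMIN5 library exceeded every control library (log2 change 1.11, SE 0.15, edgeR adjusted p = 7.1e-06). Its partner GINS3 (ENSG00000181938, chr16:58295080-58406147, plus strand) had 7.01, 5.41 and 8.38 CPM in Input GEMIN5 libraries, against 17.9, 16.6, 16.0 and 17.0 in Input control libraries. Here each GEMIN5 library was below each control library (log2 change -1.28, SE 0.18, edgeR adjusted p = 8.25e-06). GINS1 fell by 0.80 on the log2 scale (SE 0.24), and GINS4 was not called at -0.08 (SE 0.25).

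The kinase that fires origins was lower in both parts. DBF4, its regulatory subunit (ENSG00000006634, chr7:87876216-87909553, plus strand), had 13.5, 7.04 and 9.43 CPM in Input GEMIN5 libraries, against 28.9, 26.7, 25.7 and 27.1 in Input control libraries. The groups did not overlap (log2 change -1.42, SE 0.17, edgeR adjusted p = 1.07e-06), and DBF4 had the largest fall of the 47 genes. CDC7, the catalytic subunit, fell by 1.14 (SE 0.26), and MCM10, which helps to open the loaded helicase, fell by 0.97 (SE 0.25). CDC45 was not called at -0.22 (SE 0.11). Of the 8 helicase activators 1 rose and 5 fell.

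Of the 9 licensing genes 1 rose, 1 fell and 7 were not called. ORC3, a core ORC subunit (ENSG00000135336, chr6:87590067-87667453, plus strand), had 78.2, 75.5 and 72.3 CPM in Input GEMIN5 libraries, against 34.8, 36.5, 35.9 and 39.2 in Input control libraries. All GEMIN5 libraries lay above all control libraries, with a narrow spread in both groups (log2 change 1.04, SE 0.12, edgeR adjusted p = 5.96e-07). ORC2, which pairs with ORC3 in that core, fell by 0.96 (SE 0.30). ORC1, ORC4, ORC5, ORC6, CDT1 and GMNN lay between -0.16 and 0.35 and were not called. CDC6 (ENSG00000094804, chr17:40287879-40304657, plus strand), the loader that works with ORC, had 66.6, 68.1 and 69.3 CPM in Input GEMIN5 libraries, against 86.5, 83.5, 87.6 and 85.6 in Input control libraries. Its groups did not overlap, yet it was not called (log2 change -0.34, SE 0.16, edgeR adjusted p = 0.0968).

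Of the MCM2-7 ring, MCM3 fell by 0.52 (SE 0.19) and MCM4 by 0.72 (SE 0.25), while MCM2, MCM5, MCM6 and MCM7 were not called. MCM2 (ENSG00000073111, chr3:127598410-127622436, plus strand) had 140, 166 and 146 CPM in Input GEMIN5 libraries, against 134, 150, 144 and 160 in Input control libraries. These values were interleaved (log2 change 0.04, SE 0.19, edgeR adjusted p = 0.892), and the sign of MCM2 turned with RLE scaling, with DESeq2 and with library size only.

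Of the 8 tested genes of the polymerases and primase 5 fell and 2 rose. POLD1, the catalytic subunit of polymerase delta (ENSG00000062822, chr19:50384204-50418018, plus strand), had 17.9, 12.6 and 10.6 CPM in Input GEMIN5 libraries, against 29.8, 35.2, 37.0 and 38.1 in Input control libraries (log2 change -1.34, SE 0.33, edgeR adjusted p = 0.00216). POLA1, the catalytic subunit of polymerase alpha that extends primers (ENSG00000101868, chrX:24693873-24996986, plus strand), had 7.01, 3.28 and 5.39 CPM in Input GEMIN5 libraries, against 12.4, 11.8, 12.2 and 12.5 in Input control libraries (log2 change -1.20, SE 0.24, edgeR adjusted p = 0.000332). For both genes the control libraries were all higher than every GEMIN5 library. The primase subunits PRIM1 and PRIM2, which make the RNA primers, fell by 0.81 (SE 0.16) and 1.07 (SE 0.24), and the delta subunit POLD3 fell by 1.04 (SE 0.28). On its own strand PRIM1 overlaps ENSG00000285625 over 10240 bases, 48.6% of its span (11 counts in all for that gene), and NACA over 333 bases (450710 counts). POLD1 overlaps ENSG00000142539 over 2220 bases (0 counts). The counts of PRIM1 and POLD1 are therefore less certain, and PRIM1's spliced reads changed by 0.02.

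Polymerase epsilon, the leading strand enzyme, is represented among the 49 by POLE and POLE2, and both were called higher. POLE, its catalytic subunit (ENSG00000177084, chr12:132623753-132687376, minus strand), had 26.2, 26.4 and 22.2 CPM in Input GEMIN5 libraries, against 13.3, 14.5, 13.7 and 12.8 in Input control libraries. The groups were far apart (log2 change 0.87, SE 0.17, edgeR adjusted p = 0.00033). POLE2, its second subunit, was called higher by a narrow margin (log2 change 0.29, SE 0.12, edgeR adjusted p = 0.0496), and the call was lost under 18 of the alternatives, with adjusted p up to 0.507. POLD2 was not called at 0.24 (SE 0.17). In contrast to its count, the spliced reads of POLE changed by -0.19 and those of POLE2 by 0.09.

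Of the clamp and its loader 3 of 6 genes fell and 1 rose. PCNA (ENSG00000132646, chr20:5114953-5126626, minus strand) had 416, 337 and 361 CPM in Input GEMIN5 libraries, against 556, 570, 527 and 522 in Input control libraries. It was lower in each GEMIN5 library (log2 change -0.55, SE 0.14, edgeR adjusted p = 0.00351). In the clamp loader (replication factor C), RFC5 fell by 1.08 (SE 0.18) and RFC3 by 0.84 (SE 0.19), RFC2 rose by 0.36 (SE 0.12), and RFC1 and RFC4 were not called at -0.48 (SE 0.29) and 0.13 (SE 0.12).

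In nucleotide supply only TYMS, which makes thymidylate, passed the test, with a fall of 0.40 (SE 0.11). RRM2 (ENSG00000171848, chr2:10120698-10211725, plus strand), the regulatory subunit of ribonucleotide reductase, had 123, 122 and 121 CPM in Input GEMIN5 libraries, against 165, 172, 155 and 150 in Input control libraries. The groups did not overlap, and the change was not called (log2 change -0.39, SE 0.22, edgeR adjusted p = 0.144). The catalytic subunit RRM1 was at -0.20 (SE 0.17). The fork protection genes TIMELESS, CLSPN and WDHD1 lay between -0.53 and -0.43 and were not called.

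**Figure D2:**
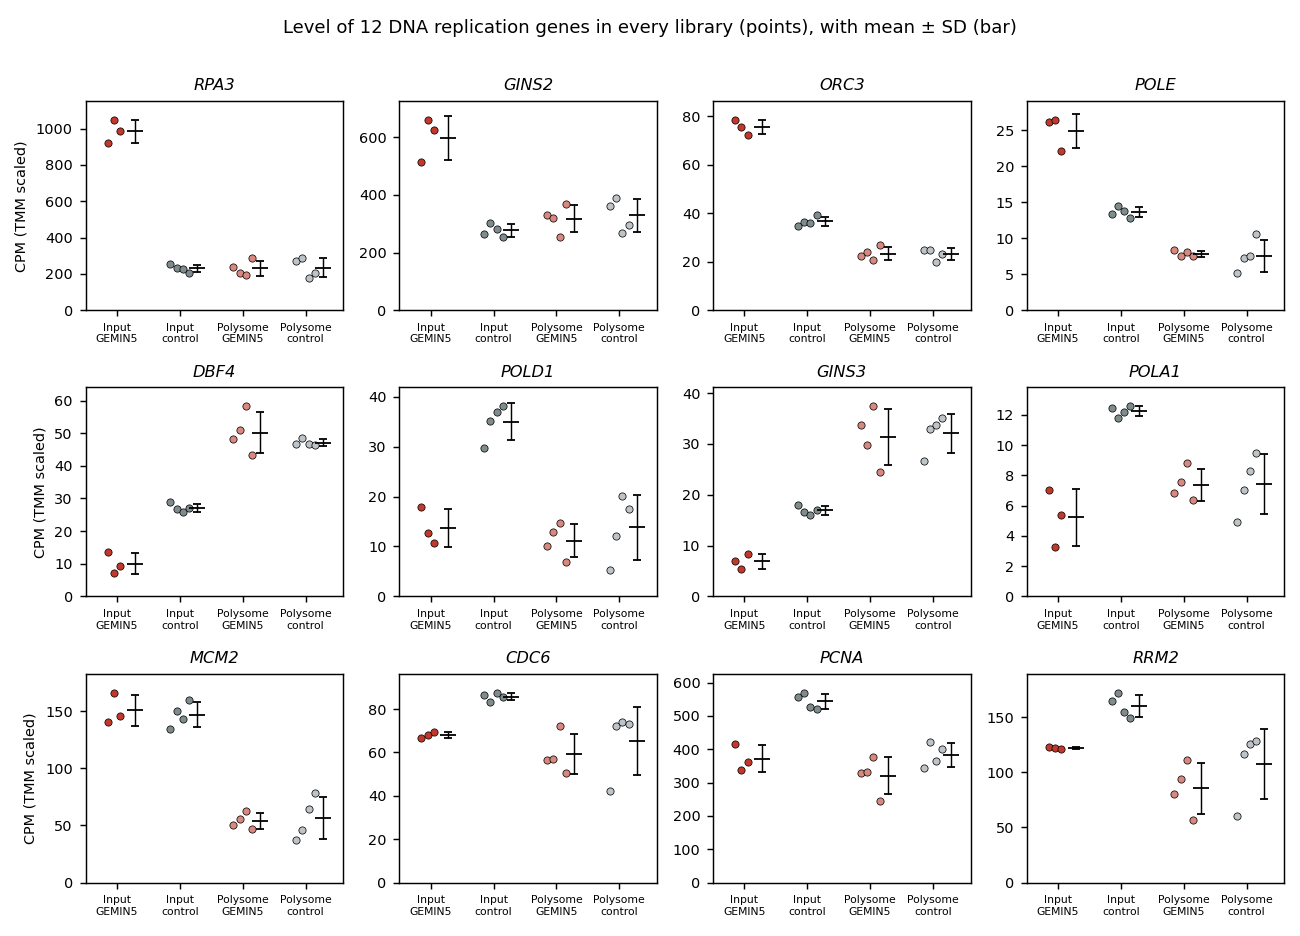
Level of 12 replication genes in each of the 15 libraries, in CPM scaled by TMM on axes that start at 0. Points are libraries and the bar is the mean with its SD. RPA3, GINS2, ORC3 and POLE stand highest in Input GEMIN5 and lie between 5.14 and 389 CPM in the Polysome libraries, where GEMIN5 and control overlap. With libraries scaled by size only, GINS2, ORC3 and POLE are lower in Input GEMIN5 than in Input control. DBF4, POLD1, GINS3 and POLA1 are lower in Input GEMIN5 than in Input control libraries.

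In polysomes the replication genes of GEMIN5 and control cells could not be distinguished. None of the 47 genes was called with edgeR, as was the case with DESeq2, beside 0.082% of all genes called higher and 0.32% lower, and 2 of the 47 had an unadjusted p under 0.05. Their median log2 change was -0.07, and single genes lay between -0.57 (TIMELESS) and 0.29 (ORC1). The groups overlapped in all 47, while 3.35% of all genes had groups that did not overlap. MCM2 had 50.6, 55.2, 63.0 and 47.1 CPM in Polysome GEMIN5 libraries, against 37.0, 45.9, 64.7 and 78.5 in Polysome control libraries (log2 change -0.07, SE 0.17, edgeR adjusted p = 0.988). CDC6 had 56.4, 57.2, 72.2 and 50.7 CPM in Polysome GEMIN5 libraries, against 42.0, 72.2, 74.1 and 73.0 in Polysome control libraries (log2 change -0.14, SE 0.15, edgeR adjusted p = 0.965). In CDC6 and in RRM2 the lowest of the Polysome control values was that of replicate 1. PCNA had 329, 331, 377 and 246 CPM in Polysome GEMIN5 libraries, against 344, 423, 364 and 400 in Polysome control libraries (log2 change -0.25, SE 0.13, edgeR adjusted p = 0.918). RRM2 had 80.3, 94.1, 111 and 56.4 CPM in Polysome GEMIN5 libraries, against 60.1, 117, 125 and 128 in Polysome control libraries (log2 change -0.33, SE 0.20, edgeR adjusted p = 0.934). Without Polysome control replicate 1, 1 of the 47 was called lower.

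The GEMIN5 effect in polysomes was then set against that in Input, as the difference of the 2 log2 changes in the same fit. The test called it higher in 10 genes and lower in 5, beside 16.9% and 20.5% of all genes, or 37.3% in either direction. The median over the 47 genes was 0.20. Under scaling by library size only it was 1.48, where the median of all genes lies at 1.27, and 42 genes were called higher and 1 lower. Of all 12197 genes, 8412 were called higher and 387 lower under that scaling. Without Input control replicates 3 and 4, 9 genes were higher and 3 lower with TMM scaling. The liver marker counts of the Polysome control libraries remain in that fit. The lower count was also 3 without Input GEMIN5 replicate 2. The largest positive differences were those of DBF4 at 1.51 (SE 0.21, edgeR adjusted p = 2.52e-05), GINS3 at 1.24 (SE 0.23, adjusted p = 0.000277), POLA1 at 1.19 (SE 0.31, adjusted p = 0.00507) and CDC7 at 1.12 (SE 0.34, adjusted p = 0.0149). These 4 genes had fallen in Input and lay between -0.03 and 0.09 in polysomes. The largest negative ones were those of RPA3 at -2.12 (SE 0.23, adjusted p = 3.24e-06), GINS2 at -1.16 (SE 0.21, adjusted p = 0.000271), ORC3 at -1.03 (SE 0.16, adjusted p = 6.89e-05) and POLE at -0.82 (SE 0.24, adjusted p = 0.0107), with library size only turning the last 3 positive. Those 4 had risen in Input and lay between -0.05 and 0.05 in polysomes.

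As a share of all counts, the 49 genes took 0.219% ± 0.0323 in Input GEMIN5 and 0.484% ± 0.0157 in Input control libraries (SD, n = 3 and 4). The groups did not overlap, and the exact two-sided permutation p of 0.0571 is the smallest that 3 against 4 libraries allow. Without Input control replicates 3 and 4 the Input control mean was 0.478%. In Polysome GEMIN5 libraries the share was 0.486% ± 0.0554, against 0.520% ± 0.0614 in Polysome control libraries (SD, n = 4 each, exact permutation p = 0.4). Outside the ribosomal protein genes the Input shares were 0.527% ± 0.0430 in GEMIN5 and 0.743% ± 0.0182 in control libraries (SD, n = 3 and 4).

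Gene counts can be set beside reads that cross a splice junction, which come from spliced RNA alone. Across the 47 genes the spliced reads in Input changed by a median of -0.83 on the log2 scale, beside -0.40 for the counts, and 39 of the 47 were lower by spliced reads than by counts. That median was -0.81 without Input control replicates 3 and 4, and -2.13 with library size only. Spliced reads were not set against counts over all genes, so whether this gap is particular to the replication genes was not tested. Over all genes, junctions 1000 nt or more from the 3′ end also had negative medians in Input, while those nearer had positive ones. Of the 24 genes called on counts, 22 had the same sign in spliced reads, and POLE and PRIM1 did not. MCM2, whose count was not called, had 353.7, 241.0 and 263.2 spliced reads in Input GEMIN5 libraries, against 928.6, 1497.5, 1149.1 and 1188.6 in Input control libraries. Every GEMIN5 library was below every control library, and scaled like the counts the change was -1.03. For POLA2, absent from the counts, it was -0.42, for FEN1 -2.33, and for POLA1, whose count had fallen by 1.20, it was -2.33. In polysomes the same median was -0.01, and the 47 genes lay between -0.43 (TIMELESS) and 0.35 (POLE).

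The change in Input differed along the transcript. Within 500 nt of the 3′ end, 27 junctions of 11 replication genes had a median log2 change of 0.44, and from 500 to 1000 nt it was -0.32. It was -0.81 from 1000 to 1500 nt, -0.85 from 1500 to 2000 nt, -1.36 from 2000 to 3000 nt, and -2.21 over 39 junctions from 3000 to 4000 nt. Beyond 4000 nt it was -0.56, over 16 junctions of only 2 genes. Over all genes the medians of the same bins were 0.93, 0.08, -0.65, -1.03, -1.04, -0.75 and -0.61. With library size only, the medians near the 3′ end are negative too. That scaling shifts every junction's change by the same amount, so it cannot alter the order of the medians and is no check on it. In polysomes the replication genes' bins lay between -0.10 and 0.04.

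**Figure D3:**
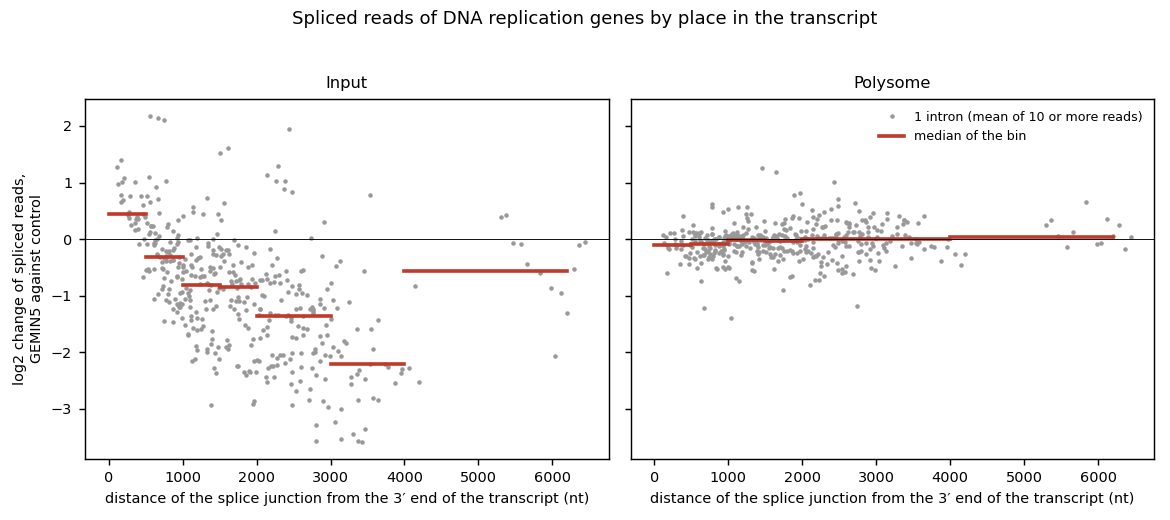
Log2 change of spliced reads in GEMIN5 against control cells for single junctions of the replication genes, by the junction's distance in nt from the 3′ end, in Input (left) and Polysome (right). Red lines are bin medians. In Input the medians go from 0.44 next to the 3′ end to -2.21 at 3000 to 4000 nt, with -0.56 in the thinly filled last bin and with all of them negative under scaling by library size only, and in Polysome they stay between -0.10 and 0.04.

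MCM2 shows this within 1 gene. Its first junction, 3372 nt from the 3′ end, had a mean of 2.00 reads in Input GEMIN5 and 40.5 in Input control libraries, a log2 change of -2.84. Its last junction, 774 nt from the end, had 105.5 and 106.0, which after scaling is a change of 1.03 (-0.27 with library size only). Both ends were measured in the same libraries. In each library the median log2 ratio of 3′ to 5′ spliced reads over 33 replication genes was 1.61 ± 0.112 in Input GEMIN5 and 0.894 ± 0.0786 in Input control (SD, n = 3 and 4, exact permutation p = 0.0571, the smallest possible). In Polysome GEMIN5 libraries it was 0.878 ± 0.174, against 1.01 ± 0.249 in Polysome control libraries (SD, n = 4 each, exact permutation p = 0.429). Without Input control replicates 3 and 4 the Input control mean was 0.918. Over 4109 genes of all kinds the same ratio was 0.886 to 1.00 in Input GEMIN5 and 0.449 to 0.585 in Input control libraries, and 0.546 to 0.670 in Polysome GEMIN5 and 0.472 to 0.898 in Polysome control libraries. This 3′ weight moves with the lower Input counts, and its part in them was not tested.

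Genes of the same pathway that are not among the 49 went both ways in Input, and as the median gene lies at -1.29 with library size only, rises smaller than that hold relative to the typical gene alone. Among all genes tested 27.1% rose and 24.3% fell. Of 17 other licensing and firing genes 3 rose and 7 fell, with a median of -0.28. The cell cycle kinase CDK2 fell by 1.81 (SE 0.17), and its partners CCNE2 and CCNA2 fell by 1.67 (SE 0.28) and 1.27 (SE 0.27). The risers were MCM3AP at 0.98 (SE 0.22), the CDC45 loader TICRR at 0.68 (SE 0.22) and TIPIN, the partner of TIMELESS, at 0.56 (SE 0.15). Of 16 tested fork and lagging strand genes 4 rose and 6 fell, with a median of -0.21. Topoisomerase TOP1 fell by 1.74 (SE 0.30), the polymerase epsilon subunit POLE3 by 1.19 (SE 0.14) and the histone chaperone SUPT16H by 1.12 (SE 0.22). RNASEH2C, a ribonuclease H2 subunit, rose by 1.90 (SE 0.20), the epsilon subunit POLE4 by 1.74 (SE 0.21) and TONSL by 0.53 (SE 0.19). POLE3 and POLE4, which bind each other in the epsilon holoenzyme, thus moved in opposite directions. Of 15 nucleotide and S-phase genes 4 rose and 6 fell, with a median of -0.01. RRM2B, a second small subunit of ribonucleotide reductase, fell by 1.85 (SE 0.30), UHRF1, which reads hemimethylated DNA, by 1.73 (SE 0.45) and the retinoblastoma gene RB1 by 1.18 (SE 0.34). The transcription factor E2F3 rose by 0.89 (SE 0.22) and thymidine kinase TK1 by 0.88 (SE 0.14). None of the genes on these lists was called in polysomes with edgeR, where 1, 1 and 2 of them had an unadjusted p under 0.05.

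Polysomes were next set against Input within the same kind of cell, which asks whether a gene is higher or lower there relative to the typical gene. What part of its cytoplasmic RNA sits on several ribosomes is not measured. In control cells 23 of the 47 genes were lower in polysomes and 5 were higher, beside 19.1% and 24.1% of all genes, or 43.2% in either direction. Their median was -0.37, and over all genes it was 0.02. Without Input control replicates 3 and 4, 20 were lower and 4 higher, although every Polysome control library kept its liver marker counts. Without Polysome control replicate 1, 9 were higher. All 6 subunits of MCM2-7 were lower, from -1.48 (MCM7) to -0.70 (MCM4), and under each scaling tried they kept that sign. With library size only, 14 were higher and 6 lower with a median of 0.15, beside 6492 and 560 of all 12197 genes. CDC6, ORC6, PCNA and RFC4 then took small positive values.

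MCM7 (ENSG00000166508, chr7:100092728-100101940, minus strand) had 82.0, 161, 200 and 203 CPM in Polysome control libraries, against 418, 466, 451 and 464 in Input control libraries (log2 change -1.48, SE 0.21, edgeR adjusted p = 1.9e-05). Its lowest Polysome library was replicate 1, and no Polysome library came near the Input ones. MCM2 stood at 56.5 ± 18.7 CPM in Polysome control and 147 ± 10.9 in Input control libraries (SD, n = 4 each), a log2 change of -1.38 (SE 0.18, edgeR adjusted p = 7.06e-06). POLD1 had a change of -1.33 (SE 0.29, edgeR adjusted p = 0.000973) and MCM3 of -1.18 (SE 0.17, edgeR adjusted p = 2.84e-05). For POLD1 the Polysome control libraries held 5.33, 12.2, 20.2 and 17.6 CPM, all below the Input control values given above, and for MCM3 they held 31.0, 43.6, 57.8 and 63.2, against 104, 115, 106 and 117 in Input control libraries.

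GINS genes stood on the other side. GINS1 (ENSG00000101003, chr20:25391008-25452700, plus strand) had 19.2, 26.2, 29.6 and 25.5 CPM in Polysome control libraries, against 8.56, 8.49, 6.35 and 8.20 in Input control libraries (log2 change 1.67, SE 0.18, edgeR adjusted p = 1.59e-06). GINS4, on chromosome 8, had 16.1, 21.2, 25.4 and 24.2 CPM in Polysome control libraries, against 8.25, 9.64, 7.17 and 8.05 in Input control libraries (log2 change 1.39, SE 0.21, edgeR adjusted p = 3.49e-05). In both genes all Polysome libraries exceeded all Input libraries. GINS3 was 0.92 higher in polysomes (SE 0.14), with 26.6, 32.8, 33.6 and 35.2 CPM against the 16.0 to 17.9 of Input, and DBF4 was 0.80 higher (SE 0.14), with 46.7, 48.6, 46.6 and 46.3 CPM against 25.7 to 28.9. RFC3 was the fifth, at 0.47 (SE 0.17), and its call was lost under 7 alternatives. GINS2, the remaining subunit, was not called at 0.25 (SE 0.14).

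**Figure D4:**
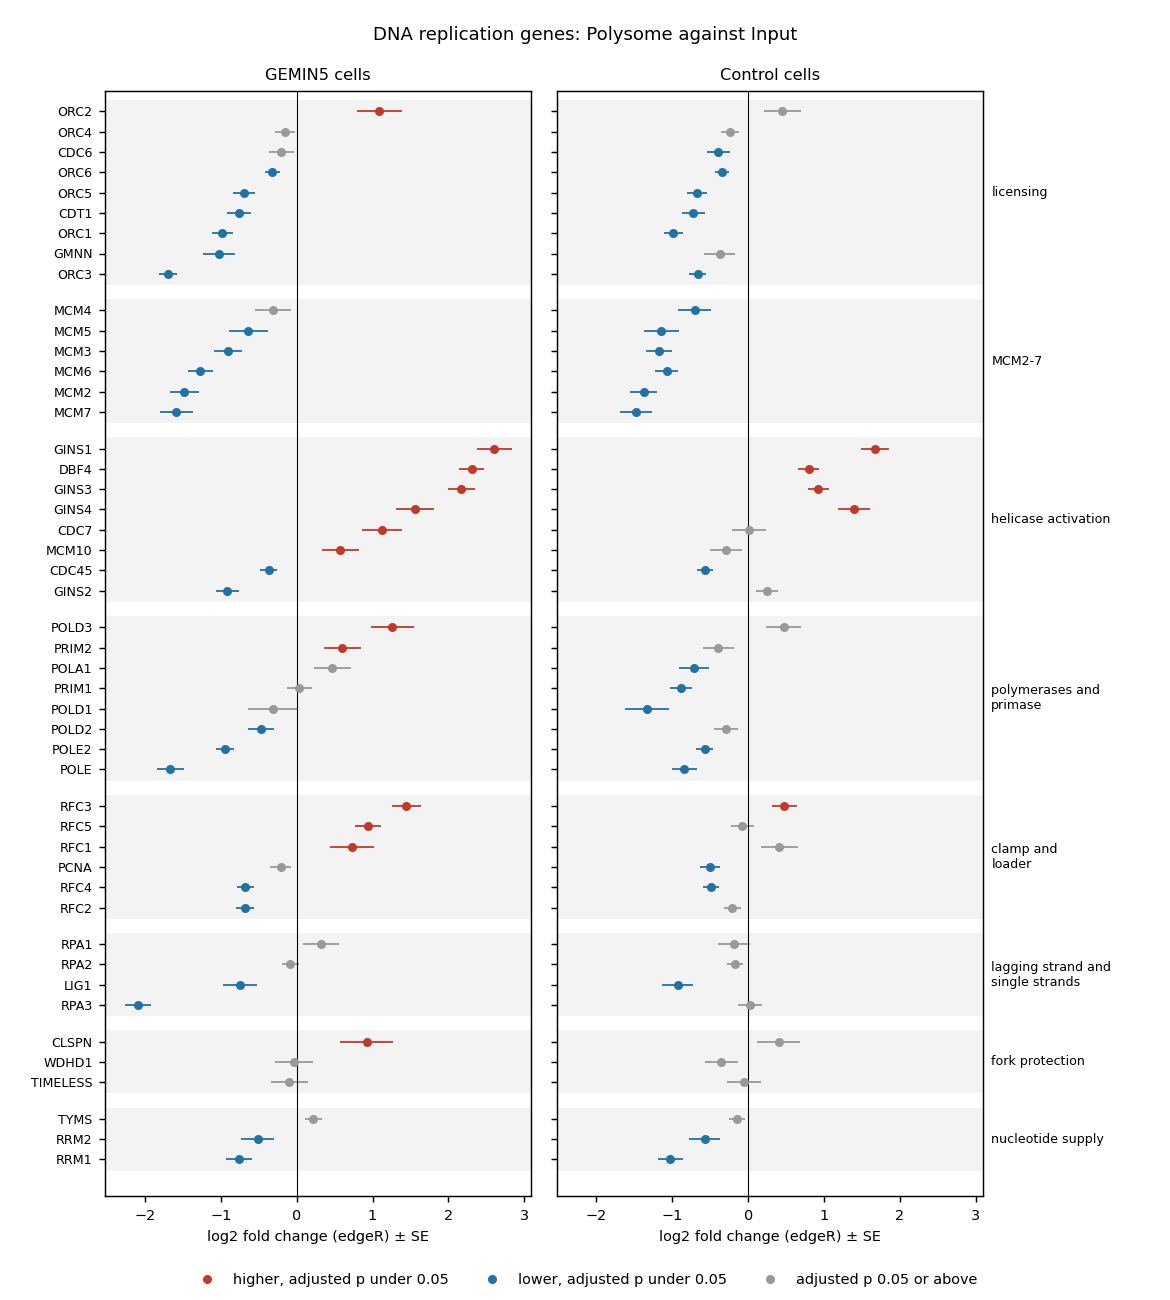
Log2 fold change of the 47 tested replication genes in Polysome against Input libraries, in GEMIN5 cells (left) and control cells (right), grouped by role. Points are edgeR estimates with their SE, and red and blue mark calls. In control cells 5 genes are higher and 23 lower, in GEMIN5 cells 13 and 22. With libraries scaled by size only, the blue points of GEMIN5 cells other than RPA3 turn positive, and so do CDC6, ORC6, PCNA and RFC4 in control cells.

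In GEMIN5 cells 13 of the 47 genes were higher and 22 lower in polysomes than in Input, beside 32.6% and 35.0% of all genes, or 67.6% in either direction. These were 13 and 19 genes without Input control replicates 3 and 4. No Input control library enters this comparison, so leaving them out acts only through the filter, the scaling and the shared spread. GINS1 had the largest rise, at 2.60 (SE 0.23, edgeR adjusted p = 1.46e-08), with 30.4, 25.7, 34.0 and 20.6 CPM in Polysome GEMIN5 libraries, against 6.01, 3.44 and 3.89 in Input GEMIN5 libraries. DBF4 followed at 2.31 (SE 0.17, edgeR adjusted p = 1.38e-09), with 48.3, 51.1, 58.2 and 43.2 CPM in Polysome GEMIN5 libraries. GINS3 was higher by 2.17 (SE 0.18, edgeR adjusted p = 5.59e-09) and GINS4 by 1.56 (SE 0.24, edgeR adjusted p = 1.6e-05). The Polysome GEMIN5 libraries of GINS3 held 24.4 to 37.4 CPM and those of GINS4 12.6 to 28.6, all above Input GEMIN5 libraries of the same gene, at 5.41 to 8.38 and 7.12 to 8.52. RPA3 changed most downwards, by -2.09 (SE 0.17, edgeR adjusted p = 5.41e-09), with 237, 207, 192 and 287 CPM in Polysome GEMIN5 libraries. ORC3 was at -1.69 (SE 0.12, adjusted p = 7.65e-10), POLE at -1.67 (SE 0.17, adjusted p = 1.16e-07) and MCM7 at -1.58 (SE 0.22, adjusted p = 3.78e-06). None of these 4 had a Polysome GEMIN5 library that reached its Input GEMIN5 libraries. When libraries were scaled by size only, 21 of the 22 lower genes took positive values, RPA3 being the exception. Then 42 of the 47 genes were called higher, beside 10310 of all 12197 genes. The 2 polysome comparisons share no library, but each shares its Input libraries with the Input comparison above.

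Splicing of the replication genes was read as the percent of reads that include an exon, an intron or an alternative site (percent spliced in, PSI). In Input 82 events of 23 genes had reads enough to be tested, and 8 of them, in 6 genes, were called with limma, beside 4.29% of all events. Of the 8, 7 had a library at 0 or 100 PSI, where the log odds depend on the number of reads, and differences between -12.5 and 4.42 points. The exception was intron 3 of POLE2, also the 1 event of the 82 with means at least 15 points apart and a gap of at least 5 points between the groups, a rule on size that was chosen after seeing the data and that 3.32% of all events met. In the other called events, PRIM1 exon HsaEX0050054 had 92.6, 92.3 and 74.5 PSI in Input GEMIN5 libraries, against 96.9, 98.8, 100 and 100 in Input control libraries (difference -12.5, limma adjusted p = 0.0492). MCM6 exon HsaEX6015668 had 100, 84.4 and 85.6 PSI in Input GEMIN5 and 100 in every Input control library (limma adjusted p = 0.029). An acceptor site of RFC5 (HsaALTA1016123-2/4) was at 94.4, 94.4 and 92.3 PSI in Input GEMIN5 libraries, against 100, 100, 100 and 97.7 in Input control libraries (difference -5.69, limma adjusted p = 0.0446). Its neighbour HsaALTA1016123-3/4 differed by 4.42 points and a CDC45 exon (HsaEX0014098) by -5.31 points. The last of the 8 were a GMNN acceptor (HsaALTA1016701-4/5), at -3.56 points, and a PRIM1 acceptor (HsaALTA1054570-2/3), at 2.08 points, where only 1 library was above 0.

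POLE2 intron 3 had 69.2, 91.7 and 69.1 PSI in Input GEMIN5 libraries, against 32.0, 22.4, 42.0 and 25.4 in Input control libraries. The lowest GEMIN5 library stood 27.1 points above the highest control library, and the means differed by 46.2 points (limma adjusted p = 0.0263). The adjusted p rose to between 0.0599 and 0.0687 when Input control replicate 1, 2 or 4 was left out, with differences of 46.7, 43.5 and 44.5 points. In Polysome GEMIN5 libraries the values were 45, 37.9, 26.9 and 69.1, against 61.1, 48.9, 37.5 and 35.4 in Polysome control libraries, and these overlapped.

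The reads behind this event were all at 1 edge of the intron. Reads running from exon 3 into intron 3 numbered 45, 22 and 32 in Input GEMIN5 libraries, against 16, 15, 29 and 13 in Input control libraries. Reads joining exon 3 to exon 4 numbered 10, 1 and 7 in Input GEMIN5 libraries, against 17, 26, 20 and 19 in Input control libraries. So the reads into the intron were the more numerous in each GEMIN5 library and in 1 of the 4 control libraries. No read ran from intron 3 into exon 4 in any of the 15 libraries. GENCODE release 29 lists a short transcript, POLE2-203, whose exon 3 runs 251 bases into the intron (chr14:49674428-49679724) and ends there as its last exon, whereas POLE2-201 has 19 exons. The 2 continuations of exon 3 are shown because they are what the reads distinguish, with the end of exon 3 in small letters and the first 30 bases that follow in capitals, from the same release on the minus strand of GRCh38. The bases shown of POLE2-203 are at chr14:49679695-49679769, and the exon 3 bases shown, which both transcripts share, are at chr14:49679725-49679769.
POLE2-203: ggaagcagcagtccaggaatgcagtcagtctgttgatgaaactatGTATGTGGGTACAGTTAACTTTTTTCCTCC
POLE2-201: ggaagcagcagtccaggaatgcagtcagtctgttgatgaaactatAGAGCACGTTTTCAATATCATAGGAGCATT
The reads counted at the edge of the intron continue as in the upper line, and those that are spliced continue as in the lower one. Whether the reads into the intron end at the annotated end of POLE2-203 was not tested.

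**Figure D5:**
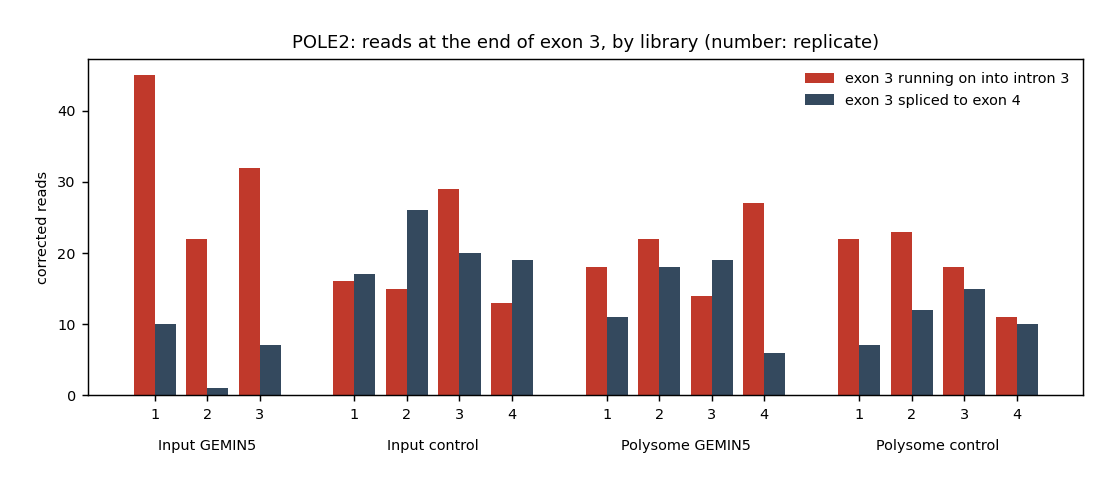
Reads at the end of POLE2 exon 3 in each library, with red bars for reads running on into intron 3 and dark bars for reads spliced to exon 4. These are read numbers before correction, although the axis label calls them corrected. In Input GEMIN5 libraries 45, 22 and 32 reads run on and 10, 1 and 7 are spliced, and in Input control libraries 16, 15, 29 and 13 run on and 17, 26, 20 and 19 are spliced.

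In polysomes no event of the replication genes was called among 127 in 30 genes, beside 0.0% of all events, and 5 had an unadjusted p under 0.05. By the rule on size it was also 0, beside 0.0972% of all events. The largest difference was that of a GINS1 exon (HsaEX0027479), with 100, 94.8, 96.1 and 72.0 PSI in Polysome GEMIN5 libraries, against 76.9, 71.2, 61.3 and 77.1 in Polysome control libraries (difference 19.1, limma adjusted p = 0.964). Next was an RFC3 exon (HsaEX0053173), at 51.2, 52.0, 46.6 and 26.2 PSI in Polysome GEMIN5 libraries and 39.6, 30.9, 25.6 and 19.3 in Polysome control libraries (difference 15.1, limma adjusted p = 0.964). In both exons 1 GEMIN5 library, replicate 4, lay among the control values. Between polysomes and Input, 0 of 107 events were called in control cells, beside 0.0186% of all events, with 12 at an unadjusted p under 0.05, and 0 met the rule on size, beside 0.366% of all events. There an MCM3 exon (HsaEX0038246) differed by -16.8 points and POLE2 intron 3 by 15.3 points, with overlapping groups in both. In GEMIN5 cells 2 of 92 were called, beside 5.0% of all events, and 0 met the rule on size, beside 3.71%. Both were the RFC5 acceptors named above, HsaALTA1016123-2/4 at 5.90 points and HsaALTA1016123-3/4 at -4.42 points in polysomes against Input. The difference of the GEMIN5 effects was called in 4 of 98 events, beside 1.94% of all, and these were 3 acceptors of RFC5 and 1 of PRIM1.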

How the data were processed

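Per the submitters' processing notes, reads were aligned with STAR 2.7.10a to GRCh38/hg38 and counted with featureCounts, and the authors deposited raw counts per gene. Per the labels, the library kit selected poly(A) RNA and marks strand. Whether counting used strand is not given in the sources used here. A further deposited table holds the percent spliced in (PSI) of each event, and a text quality column deposited by the authors (no fixed unit, other) gives corrected read numbers. All columns belong to these 15 libraries.

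Counts were tested with edgeR 4.0.16 (quasi-likelihood test, robust estimates, TMM scaling, 1 fit over 15 libraries, Benjamini-Hochberg adjustment over 12197 genes, threshold 0.05), and were filtered by expression before the fit. Values per library are CPM with TMM scaling. Events needed at least 10 corrected reads in every library compared, 1 library or more at 5 PSI or above and 1 or more at 95 or below, and were tested on log2 odds (0.5 added to each read number) with limma 3.58.1 over all events. Values of 1 library each were compared by exact permutation tests in SciPy 1.17.1, and the permutation p-values printed above are unadjusted. With 8 tests adjusted together (Benjamini-Hochberg), those printed become 0.114 in Input and 0.49 in polysomes. Spliced reads were summed over introns of 1 transcript per gene (GENCODE release 29), matched in 686 introns, scaled with the TMM factors, and 1 was added. The gene test was checked on simulated counts. R was 4.3.3 and DESeq2, an alternative, 1.42.0. Promoters came from RefSeq.

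Genes with values in every library are the called ones with the largest change, up to 4 per direction and comparison, with a mean of at least 5 CPM and groups that do not overlap, plus MCM2, CDC6, PCNA and RRM2 in the GEMIN5 comparisons. Pathway genes are named up to 3 per direction (1 that the rule names is not reported here), and events up to 4, or the 2 largest where none was called. The genes, lists and rules were chosen with earlier results of these data known. Alternatives changed the scaling, the filter, the tool, the libraries fitted, the replicate block, the read minimum, the number added and each library in turn. Leaving out Input control replicates 3 and 4 for the values per library and the spliced reads was chosen after seeing the data.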

Additional observations from a re-analysis of the deposited data

Results flagged for a closer look

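Some libraries stood apart from the other 3 of their group, with a gap to the nearest that was wide for the range. This was seen in 9 of 141 groups of 4 libraries, and chance gives about 1 in 20. In Polysome control replicate 1, CDC6 was lowest at 42.0 CPM (nearest 72.2), GMNN at 63.8 (nearest 147.6), ORC5 at 16.8 (nearest 24.7), RFC5 at 69.5 (nearest 104.6) and RRM2 at 60.1 (nearest 116.6), while POLD2 was highest at 366.0 (nearest 266.3). In Input control, GINS1 was lowest in replicate 3 at 6.35 CPM and LIG1 highest in replicate 4 at 27.6. DBF4 was highest in Polysome control replicate 2 at 48.6 CPM.

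The GEMIN5 effect differed between polysomes and Input in 15 of the 47 genes by edgeR's test of that difference, beside 37.3% of all genes. On the log2 scale, Polysome minus Input, it was -2.12 for RPA3, -1.16 for GINS2, -1.03 for ORC3, -0.82 for POLE and -0.46 for RFC2 (adjusted p = 0.0332). It was 1.51 for DBF4, 1.24 for GINS3, 1.19 for POLA1, 1.12 for CDC7, 1.01 for RFC5 (adjusted p = 0.002), 1.00 for PRIM2 (adjusted p = 0.0169), 0.97 for RFC3 (adjusted p = 0.00503), 0.94 for GINS1 (adjusted p = 0.0168), 0.92 for PRIM1 (adjusted p = 0.00272) and 0.87 for MCM10 (adjusted p = 0.041). The call was lost under 11 alternatives for MCM10, with adjusted p up to 0.0982, and under 14 for RFC2, with adjusted p up to 0.615.

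In PSI the same difference was 7.37 points for the RFC5 acceptor HsaALTA1016123-2/4 (limma adjusted p = 0.0168), -4.62 for HsaALTA1016123-3/4 (adjusted p = 0.0237), -3.05 for HsaALTA1016123-1/4 (adjusted p = 0.0283) and -2.08 for the PRIM1 acceptor HsaALTA1054570-2/3 (adjusted p = 0.0481). Each has Input libraries at 0 or 100 PSI.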

How the results depend on the processing

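Single-gene values under the alternatives were sorted for the calls of the main fit, plus MCM2, CDC6, PCNA and RRM2 in the GEMIN5 comparisons. Of these values, 2289 kept their direction and their side of the threshold, 150 lost the call, 11 gained one and 42 turned. Other results that were not called are left out, so the 11 are not all the calls gained. Scaling by library size only moved most counts: 1 gene higher and 43 lower in Input, 42 and 1 in the difference between fractions, 14 and 6 for Polysome against Input in control cells, and 42 and 0 in GEMIN5 cells. Of all 12197 genes, that scaling called 605 higher and 9270 lower in Input, and 8412 and 387 in the difference. It called 6492 and 560 in control cells, and 10310 and 465 in GEMIN5 cells. That scaling turned ORC3 to -0.24, GINS2 to -0.19, RFC2 to -0.95, POLE to -0.41, POLE2 to -0.98 and MCM2 to -1.26 in Input. In the difference it turned ORC3 to 0.26, GINS2 to 0.15, RFC2 to 0.85 and POLE to 0.45, and in control cells CDC6 to 0.13, ORC6 to 0.17, PCNA to 0.00898 and RFC4 to 0.0189. In GEMIN5 cells it turned MCM2 to 0.34, MCM3 to 0.89, MCM5 to 1.19, MCM6 to 0.53, MCM7 to 0.24, CDT1 to 1.07, GMNN to 0.78, ORC1 to 0.83, ORC3 to 0.10, ORC5 to 1.12, ORC6 to 1.48, CDC45 to 1.43, GINS2 to 0.90, RFC2 to 1.15, RFC4 to 1.12, POLD2 to 1.36, POLE to 0.13, POLE2 to 0.85, LIG1 to 1.06, RRM1 to 1.03 and RRM2 to 1.31. MCM2 in Input, near 0, also turned to -0.0143 with RLE scaling and DESeq2, to -0.0461 without the filter, to -0.006 without Input control replicate 1 and to -0.28 without Input GEMIN5 replicate 2, and in polysomes to 0.004 and 0.13 without Polysome control replicates 3 and 4. Over all libraries left out 1 at a time, MCM2 ranged from -0.28 to 0.0821 in Input and from -0.222 to 0.132 in polysomes.

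Leaving out 1 library at a time gave 4 to 7 higher and 16 to 26 lower genes in Input, 0 to 1 lower in polysomes, 8 to 12 higher and 3 to 6 lower in the difference, 4 to 9 higher and 21 to 26 lower in control cells, and 9 to 13 higher and 17 to 22 lower in GEMIN5 cells. Without Input control replicates 3 and 4 together, 3 were lower in the difference. The shares of all genes called with libraries left out, or with the replicate block below, are not given here. These counts therefore show only their own spread.

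Called events were few and unstable. In Input they numbered 3 with at least 20 reads, 19 with 1 added to each read number, 563 with no filter on the PSI range, 0 to 3 with a library left out, and 1 by a rule on size chosen after seeing the data. In the difference they numbered 0, 16 and 412 under the first 3 of these and 2 to 6 with a library left out, in GEMIN5 cells 0, 17 and 453, and 0 to 1, and in control cells 5 with no filter on the PSI range. The filters also set which events are tested, and the shares of all events called under these alternatives are not given here. The cause was not tested.

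Libraries with the same replicate number correlated between -0.56 and 0.49 in their deviations from the group means. Those with different numbers were not compared, so whether the numbers pair libraries was not tested. With the replicate number as a block, 5 genes rose and 17 fell in Input, and the events called were 0 in Input, 1 in the difference and 0 in GEMIN5 cells. Outside ribosomal protein genes the difference in the Input share of counts was -0.216 percentage points, and the stricter motif gave 7 genes. With 3 or 4 libraries a group, single values cannot pass 0.05 in Input.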
